A study of Mus musculus with 16 samples.

Results

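The stress-responsive microRNAs (miRNAs, small RNAs that silence messenger RNAs) mmu-miR-34a-5p and mmu-miR-210-3p, below miR-34a-5p and miR-210-3p, were read on 16 arrays of macrophage-like mouse cells and followed across 4 growth and stimulation groups. The pair was chosen by name, with earlier results of these data known, as 2 of the 1247 mouse miRNAs on the array. Both were among the 231 miRNAs tested because the scanner software detected them on all arrays of at least 1 group. All cells were RAW264.7, a mouse line with macrophage properties, so every group is a model of 1 transformed line and not of macrophages from an animal. Th2_IL33 cells were grown for 48 h with 10 ng per ml of IL-4 and IL-13 (interleukins of the Th2 type), washed, and then given 20 ng per ml of recombinant mouse interleukin-33 (IL-33) for 4 h. Th2 cells had the same growth in cytokines with no IL-33, Media_IL33 cells were grown in medium without cytokines and received IL-33, and Media cells received neither. Each group held 4 arrays, 1 from each of 4 independent experiments, and replicate numbers 1 to 4 name the experiments, since the sample descriptions give each number its own experiment letter in all groups.

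miR-34a is transcribed under direct control of the tumour suppressor p53 and represses transcripts that drive the cell cycle and cell survival. miR-210 is induced by hypoxia-inducible factor when oxygen is low and represses transcripts of mitochondrial iron-sulfur cluster assembly and respiration. IL-4 and IL-13 act through the transcription factor STAT6 and drive alternative activation of macrophages, while IL-33, released by damaged barrier cells, acts through the receptor ST2 and the adaptor MyD88.

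Each miRNA finds its targets mainly through its seed (bases 2 to 8 from the 5′ end, in capitals). The sequences are shown because the seed separates the pair and is shared by relatives of miR-34a-5p. The mature sequences are those of RefSeq on GRCm38.p6. miR-34a-5p lies at chr4:150068473-150068494 on the plus strand and miR-210-3p at chr7:141221407-141221428 on the minus strand.
miR-34a-5p: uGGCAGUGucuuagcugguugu
miR-34b-5p: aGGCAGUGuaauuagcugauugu
miR-449a-5p: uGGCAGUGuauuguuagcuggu
miR-449c-5p: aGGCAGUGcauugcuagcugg
miR-210-3p: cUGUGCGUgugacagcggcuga
Of the sequences shown, the upper 4 share the seed GGCAGUG, and no other mature mouse miRNA of the RefSeq table holds the seed of miR-210-3p. The hairpin gene Mir34a (102 bases) overlaps no other RefSeq gene, and its nearest neighbours are the long noncoding RNA gene Gm13067 (9737 bases away) and the receptor gene Gpr157 (18948 bases away). Mir210 (110 bases) also overlaps none, and its nearest neighbours are Rassf7 (2726 bases away) and Lmntd2 (5867 bases away).

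The array read each miRNA with a pair of probes of different length, printed as spots that were averaged per probe. The probe sequences, from the deposited files, are shown because they say which bases of the miRNA the signal rests on. Capitals mark the probe bases that pair with the seed.
miR-34a-5p, 19 bases: acaaccagctaagaCACTG
miR-34a-5p, 20 bases: acaaccagctaagaCACTGC
miR-210-3p, 15 bases: tcagccgctgtcacA
miR-210-3p, 16 bases: tcagccgctgtcacAC
The miR-34a-5p probes pair with bases 4 to 22 and 3 to 22 of the miRNA and so cover 5 and 6 seed bases. The miR-210-3p probes pair with bases 8 to 22 and 7 to 22 and cover 1 and 2 seed bases. Of the other mature miRNAs of the RefSeq table, which held no miR-34c-5p, matches were counted without gaps. By that count miR-449a-5p matched the 20-base miR-34a-5p probe at the most bases (13 of 20), and none matched a miR-210-3p probe at more than 11. Matches with a gap were not counted, and miR-34b-5p (23 bases against the 22 of miR-34a-5p) may match the miR-34a-5p probes at more bases that way. Neither miR-449a-5p nor any of the other relatives miR-34b-5p, miR-34c-5p, miR-34c-3p, miR-449b and miR-449c-5p was detected on any of the 16 arrays, and miR-34b-3p was detected on 1 Media array. The opposite arms miR-34a-3p and miR-210-5p were detected on 0 arrays, and none of these 9 miRNAs was well above background on any array. miR-34a-5p and miR-210-3p themselves were detected and well above background on 16 of 16 arrays.

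Signals below are relative signals, in which 1 is the 75th percentile of the miRNAs detected on all arrays. Between 206 and 256 miRNAs were detected per array, no spot was saturated, and the number of arrays limits the precision. Media 3 had the lowest median correlation with the arrays of its own group (0.874). Arrays lay on 2 slides, of which slide 1 held Media 2 to 4, Th2 1 to 3 and Media_IL33 3 and 4. Slide 2 held the 4 Th2_IL33 arrays, Th2 4, Media_IL33 1 and 2 and Media 1. The myeloid miRNAs miR-223-3p, miR-142a-3p and miR-142a-5p were detected on 16 of 16 arrays and miR-511-3p on 8. Of 11 marker miRNAs of other cell types 10 were detected on no array, and the muscle miRNA miR-206-3p was detected on 11, at relative signals of 0.0323 to 0.0795 over all arrays.

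miR-34a-5p rose with Th2 cytokines, by 1.72-fold without IL-33 and by 1.74-fold with it, and no change with IL-33 passed the test. Its relative signal was 1.47, 1.49, 1.37 and 1.45 in Th2 replicates 1 to 4. In Media replicates 1 to 4 it was 1.22, 0.649, 0.638 and 0.973. Every Th2 array lay above every Media array, and the Media arrays were spread much more widely than the Th2 arrays. The means were 1.45 ± 0.0516 in Th2 and 0.870 ± 0.282 in Media (SD, n = 4 each). The log2 difference between Th2 and Media was 0.79 ± 0.17 (SE, limma adjusted p = 0.00558), with a 95% interval of 1.34-fold to 2.22-fold. It was higher in 4 of 4 experiments, with log2 differences of 0.27, 1.20, 1.11 and 0.57 in experiments 1 to 4. Of all 231 tested miRNAs 8.66% were called higher in this comparison and 9.52% lay above Media with no overlap of arrays. miR-34a-5p was the 15th largest of the 20 miRNAs called higher. Total RNA of whole cultures was read, so a change in every cell and a change in some of the cells cannot be told apart.

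The same comparison with IL-33 present gave 1.43, 1.60, 1.44 and 1.55 in Th2_IL33 replicates 1 to 4. The Media_IL33 replicates 1 to 4 had 0.809, 0.904, 0.826 and 0.931. The groups were far apart and each was tight, with means of 1.50 ± 0.0849 in Th2_IL33 and 0.868 ± 0.0595 in Media_IL33 (SD, n = 4 each). The log2 difference was 0.80 ± 0.17 (SE, limma adjusted p = 0.00621), with a 95% interval of 1.35-fold to 2.23-fold. This SE is pooled over all 4 groups, the widely spread Media arrays included, and is not the spread of this comparison alone. The 4 experiments differed little, with log2 differences between 0.74 and 0.82. In this comparison 8.23% of the tested miRNAs were called higher and 14.3% lay above with no overlap, and miR-34a-5p was the 14th largest of the 19 called. The call was lost in both comparisons when arrays were scaled by the percentile over all miRNAs (log2 differences 0.73 and 0.76) and in the authors' deposited table (0.73 and 0.62), and in the comparison with IL-33 after quantile normalization (0.69). The limma adjusted p in these settings lay between 0.0791 and 0.194.

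**Figure D1:**
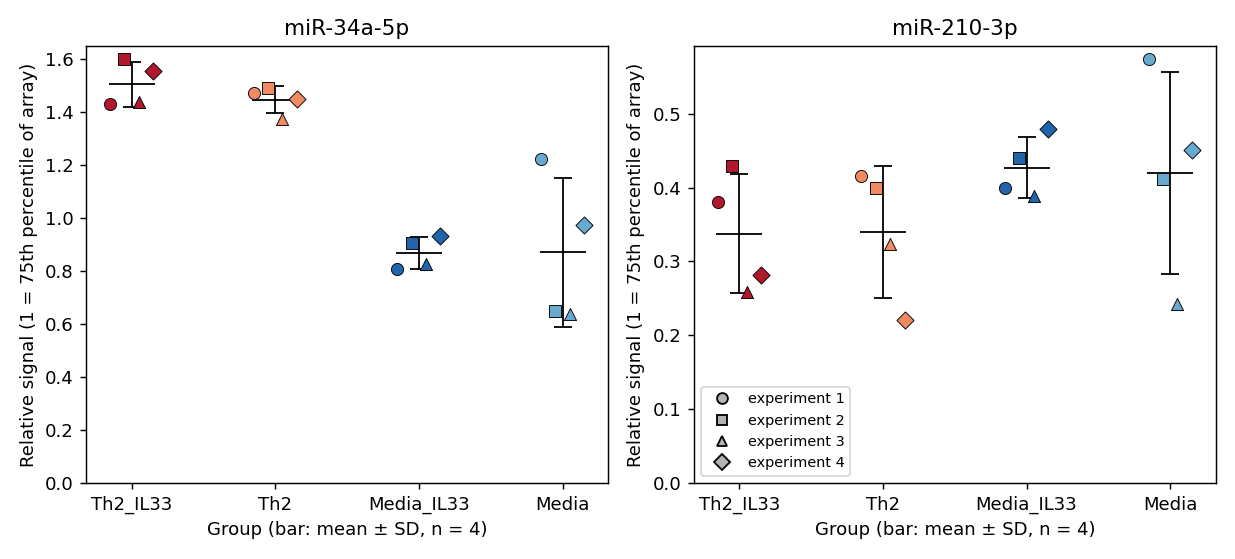
Relative signal of miR-34a-5p (left) and miR-210-3p (right) by group, on a vertical axis from 0. A signal of 1 is the array's 75th percentile among the miRNAs detected on all arrays. Each symbol is 1 array, its shape names the experiment, and bars give the mean ± SD of 4 arrays. For miR-34a-5p the Th2_IL33 and Th2 arrays lie between 1.37 and 1.60 and the Media_IL33 and Media arrays between 0.638 and 1.22, while for miR-210-3p the groups overlap.

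IL-33 gave no called difference in miR-34a-5p. Media_IL33 and Media differed by a log2 of 0.05 (limma adjusted p = 1, 95% interval from -0.32 to 0.41), with 2 experiments higher and 2 lower. Th2_IL33 and Th2 differed by 0.06 (limma adjusted p = 1, 95% interval from -0.31 to 0.42), with 3 of 4 experiments higher. These intervals do not reach the size of the difference with Th2 cytokines, and of all tested miRNAs 1.73% were called in each of the 2 comparisons of IL-33. The interaction, the effect of IL-33 after growth in Th2 cytokines less its effect after growth in medium, was 0.0085 (limma adjusted p = 0.995, 95% interval from -0.51 to 0.52). No miRNA was called in the interaction by limma (0% of 231), and 5 had an unadjusted p under 0.05. In order of mean signal Th2_IL33 and Th2 came before Media_IL33 (0.868) and Media (0.870), and the last pair has no order, since the mean of log2 values put Media_IL33 slightly above Media. Only between the Th2-grown and the medium-grown groups did arrays not overlap, and the Media arrays alone ranged from 0.638 to 1.22.

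miR-210-3p passed the test in no comparison. Its relative signal was 0.416, 0.399, 0.323 and 0.220 in Th2 replicates 1 to 4. In Media replicates 1 to 4 it was 0.574, 0.412, 0.243 and 0.451. The groups overlapped over most of their range, and for miR-210-3p as for miR-34a-5p Media 1 was the highest and Media 3 the lowest of the Media arrays. The means were 0.340 ± 0.0891 in Th2 and 0.420 ± 0.137 in Media (SD, n = 4 each). The log2 difference was -0.28 ± 0.26 (SE, limma adjusted p = 0.567), with a 95% interval of 0.563-fold to 1.20-fold, and 3 of 4 experiments were lower.

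With IL-33 present, miR-210-3p was 0.381, 0.429, 0.259 and 0.282 in Th2_IL33 replicates 1 to 4. In Media_IL33 replicates 1 to 4 it was 0.400, 0.440, 0.389 and 0.480. Experiments 1 and 2 were nearly equal in both groups, and the gap lay in experiments 3 and 4, with log2 differences of -0.58 and -0.77. The means were 0.338 ± 0.0806 in Th2_IL33 and 0.427 ± 0.0415 in Media_IL33 (SD, n = 4 each). The log2 difference of -0.37 ± 0.26 (SE, limma adjusted p = 0.452) was lower in 4 of 4 experiments, with a 95% interval of 0.531-fold to 1.13-fold. For IL-33 itself the log2 difference was 0.09 in medium-grown cells (95% interval from -0.46 to 0.63) and 0.0030 in Th2-grown cells (95% interval from -0.54 to 0.55), each with a limma adjusted p of 1. The standard error of miR-210-3p, 0.26, was larger than the 0.17 of miR-34a-5p and the median of 0.18 over all tested miRNAs.

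**Figure D2:**
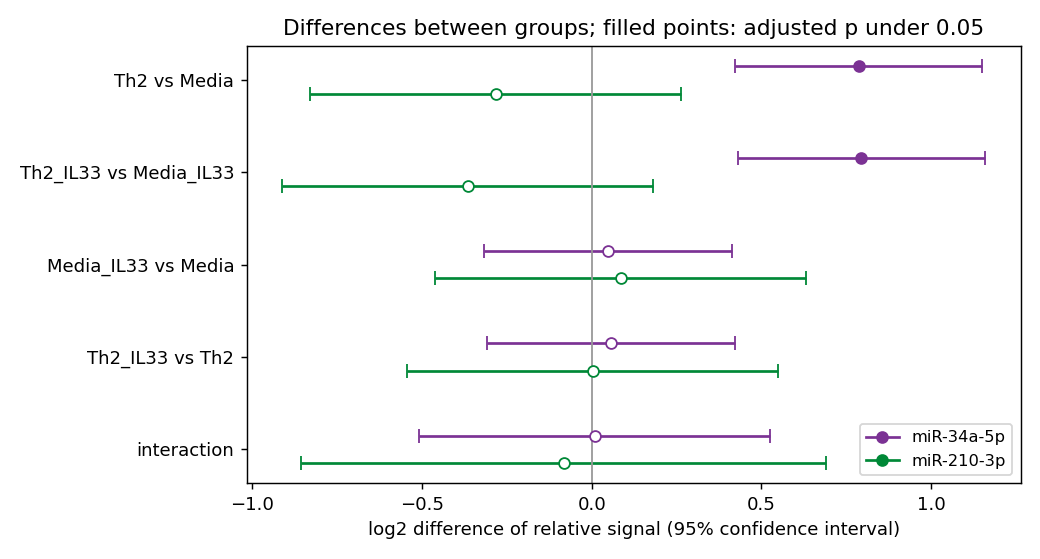
Log2 differences of relative signal with 95% confidence intervals from limma (horizontal axis) for miR-34a-5p and miR-210-3p in the 5 comparisons (rows), where filled points have an adjusted p under 0.05. The miR-34a-5p points at 0.79 and 0.80 lie clear of 0, and each interval of miR-210-3p holds 0.

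To ask whether the p53-responsive and the hypoxia-responsive miRNA changed unequally, the log2 signal of miR-210-3p was subtracted from that of miR-34a-5p within each array. Any scaling of an array cancels in this difference, and its level has no meaning across 2 different sets of probes, so only its change between groups was compared. In Th2 replicates 1 to 4 it was 1.82, 1.90, 2.09 and 2.72. In Media replicates 1 to 4 it was 1.09, 0.65, 1.39 and 1.11. The groups did not overlap, and the mean difference was 2.13 ± 0.41 in Th2 and 1.06 ± 0.31 in Media (SD, n = 4 each), a change of 1.07 or 2.10-fold. With IL-33 present the means were 2.19 ± 0.33 in Th2_IL33 and 1.03 ± 0.05 in Media_IL33 (SD, n = 4 each), a change of 1.16 or 2.23-fold with no overlap. The 4 Media_IL33 arrays lay between 0.96 and 1.09, the tightest of the 4 groups. Both changes went the same way in 4 of 4 experiments. Both had an exact two-sided permutation p of 0.0286, the smallest that 4 arrays against 4 can give. Adjusted over the 4 comparisons made this way the exact p was 0.0571, so neither passed the threshold of 0.05. With experiments as pairs, an exact sign-flip permutation test gave p = 0.125 for each, again the smallest possible. IL-33 changed the within-array difference by -0.04 in medium-grown cells (exact permutation p = 0.714, adjusted 0.886) and by 0.05 in Th2-grown cells (exact permutation p = 0.886, adjusted 0.886).

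**Figure D3:**
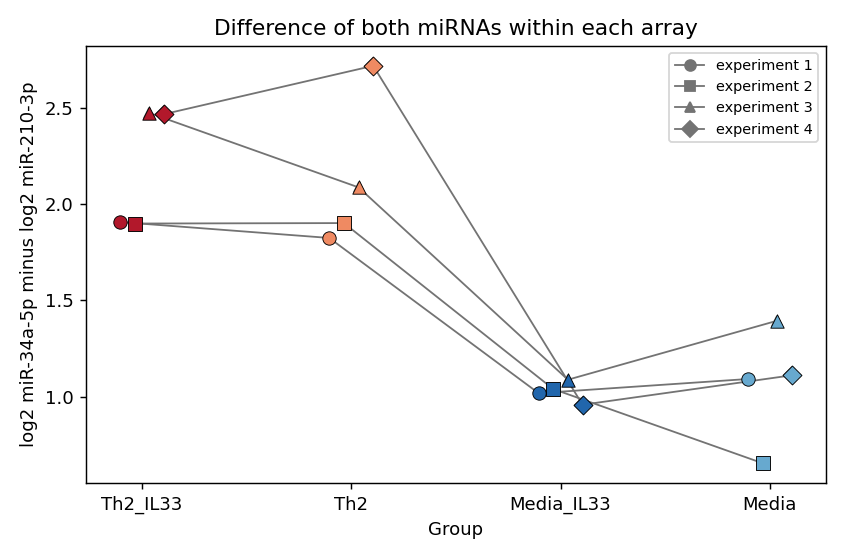
Log2 signal of miR-34a-5p minus that of miR-210-3p within each array (vertical axis, which does not start at 0) by group, with lines joining the arrays of 1 experiment. All Th2_IL33 and Th2 arrays lie at 1.82 or above and all Media_IL33 and Media arrays at 1.39 or below.

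Within slide 1 the log2 difference of Th2 over Media was 0.97 for miR-34a-5p (limma adjusted p = 0.0178) and 0.08 for miR-210-3p (limma adjusted p = 0.838). Within slide 2, where each of these groups had 1 array, it was 0.24 for miR-34a-5p (limma adjusted p = 0.529) and -1.38 for miR-210-3p (limma adjusted p = 0.252). With single arrays these slide 2 values take their spread from the Th2_IL33 and Media_IL33 arrays of that slide, and their p does not show that the difference is absent there. Th2_IL33 over Media_IL33 within slide 2 was 0.81 for miR-34a-5p (limma adjusted p = 0.00947) and -0.34 for miR-210-3p (limma adjusted p = 0.432), and slide 1 held no Th2_IL33 array. With slide as a block miR-34a-5p stayed called, at 0.79 in Th2 over Media (limma adjusted p = 0.00548) and 0.69 in Th2_IL33 over Media_IL33 (limma adjusted p = 0.0254). The within-array difference changed by 0.88 on slide 1 (3 arrays in each group, which did not overlap) and by 1.63 on slide 2 (1 array in each) between Th2 and Media. Media_IL33 over Media was 0.25 for miR-34a-5p and 0.28 for miR-210-3p within slide 1. Within slide 2, with 1 Media array, it was -0.52 and -0.45. Th2_IL33 over Th2 within slide 2, with 1 Th2 array, was 0.05 and 0.58. Slide 1 held 3 of the 4 Th2 arrays and no Th2_IL33 array, so slide and IL-33 cannot be fully told apart in Th2-grown cells.

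The spots of miR-34a-5p were uneven on 2 arrays of medium-grown cells. The spots of its 20-base probe had a coefficient of variation of 34.6% on Media_IL33 3 and 52.5% on Media 2, and those of the 19-base probe 35.0% and 59.2%. On the other 14 arrays it was 20.4% or less for either probe. On Media 2 the 10 spots of the 20-base probe in array rows up to 130 and columns up to 90, bounds set after the spots were seen, averaged 110 intensity units, against 287 for its 10 other spots, a ratio of 0.38. The same ratio was 0.64 on Media_IL33 3 and between 0.99 and 1.13 on the other 14 arrays. For the 19-base probe it was 0.45 on Media 2, 0.73 on Media_IL33 3 and between 0.87 and 1.12 on the others. The miR-210-3p probes showed no such gap, with ratios between 0.91 and 1.15 over all 16 arrays. They had few spots in these rows and columns, 2 to 4 per array for the 16-base probe and 7 to 8 for the 15-base probe.

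These low spots were not marked as outliers on either array, so they entered the means. With spots from array rows above 130 only on every array, an alternative chosen after the spots were seen, Media 2 had a relative signal of 0.882 in place of 0.649 for miR-34a-5p, and Media_IL33 3 had 0.983 in place of 0.826. The log2 differences were then 0.71 for Th2 over Media (limma adjusted p = 0.00501) and 0.71 for Th2_IL33 over Media_IL33 (limma adjusted p = 0.00616). Without both arrays they were 0.66 (limma adjusted p = 0.0309) and 0.77 (limma adjusted p = 0.0157). Without Media 2 alone the within-array difference between miR-34a-5p and miR-210-3p passed the threshold for Th2 over Media, at 0.93 (exact permutation, adjusted p = 0.0381). In the same refit it was lower in Media_IL33 than in Media, by -0.17 (exact permutation, adjusted p = 0.0381). There Media_IL33 and Media only just ceased to overlap, at 1.087 and 1.091. Both comparisons thus had the smallest possible exact p, which made the adjustment over the 4 comparisons milder. The pass does not mean a larger change with Th2 cytokines, as that change was 1.07 with all arrays. Neither comparison passed under the other handlings of these spots. The exact permutation adjusted p for Th2 over Media was 0.0571 without both arrays, where the change was again 0.93, with rows above 130 (0.98) and with the median of spots (1.02). For Media_IL33 over Media it was 0.133, 0.571 and 0.857 in the same settings. The cause of the dim spots was not tested.

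**Figure D4:**
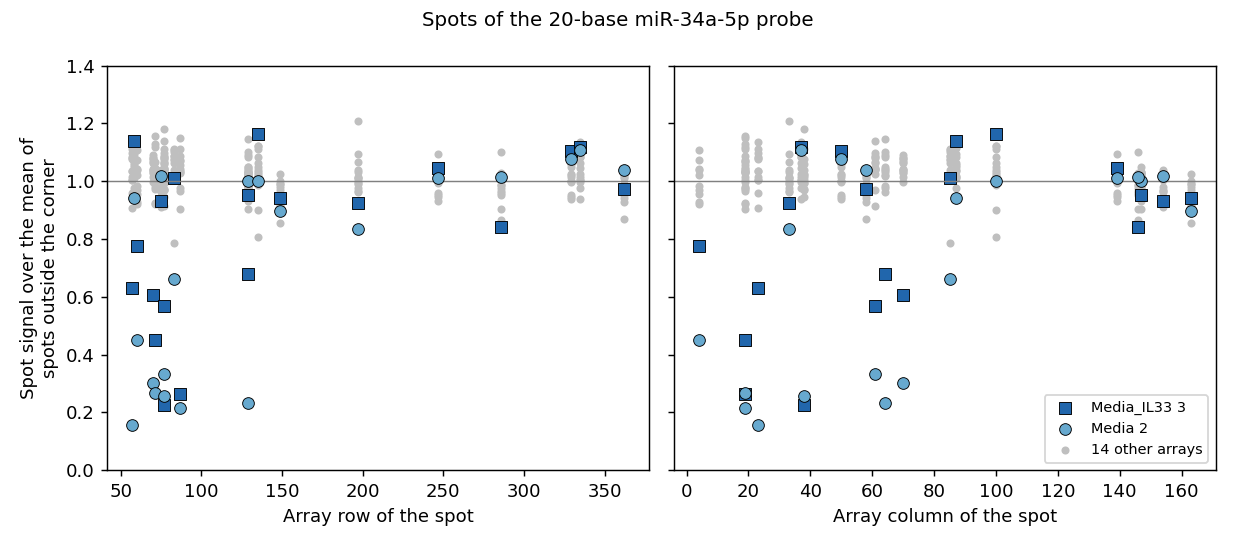
Signal of each spot of the 20-base miR-34a-5p probe divided by the mean of the array's spots outside rows up to 130 and columns up to 90 (vertical axis), against the spot's array row (left) and column (right). Spots of Media_IL33 3 and Media 2 fall well below 1 at low rows and columns, while those of the 14 other arrays stay near 1.

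Both probes of each miRNA gave like differences. For Th2 over Media the miR-34a-5p probes of 19 and 20 bases gave 0.76 and 0.79, and for Th2_IL33 over Media_IL33 0.71 and 0.83, with no overlap of arrays for either probe. The miR-210-3p probes of 15 and 16 bases gave -0.29 and -0.28, and -0.40 and -0.34, with overlap in each case. The scanner software's own error for the total signal of the miRNA was between 7.60% and 9.69% of that signal over both miRNAs and all arrays.

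Other miRNAs of the p53 response were mostly below detection. Of 14 listed, 8 were detected on no array, among them miR-34b-5p, both arms of miR-34c, miR-192-5p, miR-194-5p, miR-143-3p and miR-145a-5p, and 4 were tested. miR-34a-5p was the 1 called higher of these 4 in Th2 over Media and in Th2_IL33 over Media_IL33, and 0 were called lower, while of all tested miRNAs 8.66% and 8.23% were called higher and 0.866% and 1.3% lower. The other tested members were the cell-cycle repressors miR-16-5p and miR-15a-5p, and miR-107-3p, which is on both lists. Their log2 differences were 0.16, 0.07 and 0.18 in Th2 over Media, and 0.13, 0.18 and 0.18 in Th2_IL33 over Media_IL33. In the main processing these values lay close to the median of all tested miRNAs, which was 0.06 and 0.08 in the 2 comparisons. The median over the 4 tested members, miR-34a-5p included, was 0.17 and 0.18. Over 10 other processing settings it ranged from 0.07 to 0.30 and from 0.06 to 0.26. After quantile normalization it was 0.30 and 0.26, against 0.25 and 0.24 for the hypoxia-responsive list. In the authors' table it was 0.20 and 0.14, against 0.16 and 0.20. In all other settings the hypoxia-responsive list had the higher median.

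The hypoxia-responsive miRNAs were mostly detected, and 12 of 13 listed were tested, with 1 called higher and 0 lower in each comparison of Th2 cytokines. That share is near the 8.66% and 8.23% of all tested miRNAs called higher. The called one was miR-23b-3p, which rose by a log2 of 0.64 in Th2 over Media (limma adjusted p = 0.0375) and by 0.61 in Th2_IL33 over Media_IL33 (limma adjusted p = 0.0482). Its relative signal averaged 1.92 ± 0.0631 in Th2 and 1.26 ± 0.309 in Media (SD, n = 4 each). With IL-33 present it averaged 1.82 ± 0.338 in Th2_IL33 and 1.19 ± 0.208 in Media_IL33 (SD, n = 4 each). Its call was lost in 8 of 19 other settings for Th2 over Media and in 7 of 18 for Th2_IL33 over Media_IL33, where the log2 differences ranged from 0.40 to 0.66 and from 0.40 to 0.82. The settings that ended both calls were the percentile over all miRNAs, quantile normalization, the authors' table, a looser detection filter and leaving out Media 2 and Media_IL33 3.

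The log2 difference of 11 of the 12 lay above 0 in both comparisons, as did those of 57.6% and 56.3% of all tested miRNAs, and miR-210-3p, the best known of the list, was the 1 below 0. Several members are of the same family, such as miR-26a-5p and miR-26b-5p, so the 12 are not independent. miR-181a-5p was detected on only 9 arrays, with a Media mean of 0.0329 under the floor of 0.0353. The median over the list was 0.37 in Th2 over Media and 0.34 in Th2_IL33 over Media_IL33, against 0.06 and 0.08 over all tested miRNAs. Over 10 other processing settings these medians ranged from 0.10 to 0.39 and from 0.20 to 0.42, with at least 10 of 12 members above 0. Uncalled members included miR-26a-5p at 0.45 and 0.52, miR-24-3p at 0.43 and 0.41, and miR-27a-3p at 0.37 and 0.34, in the same order of comparisons. miR-24-3p and miR-27a-3p belong, with miR-23b-3p, to the paired miR-23, miR-27 and miR-24 clusters. In the 2 comparisons of IL-33 no member of either list was called.

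**Figure D5:**
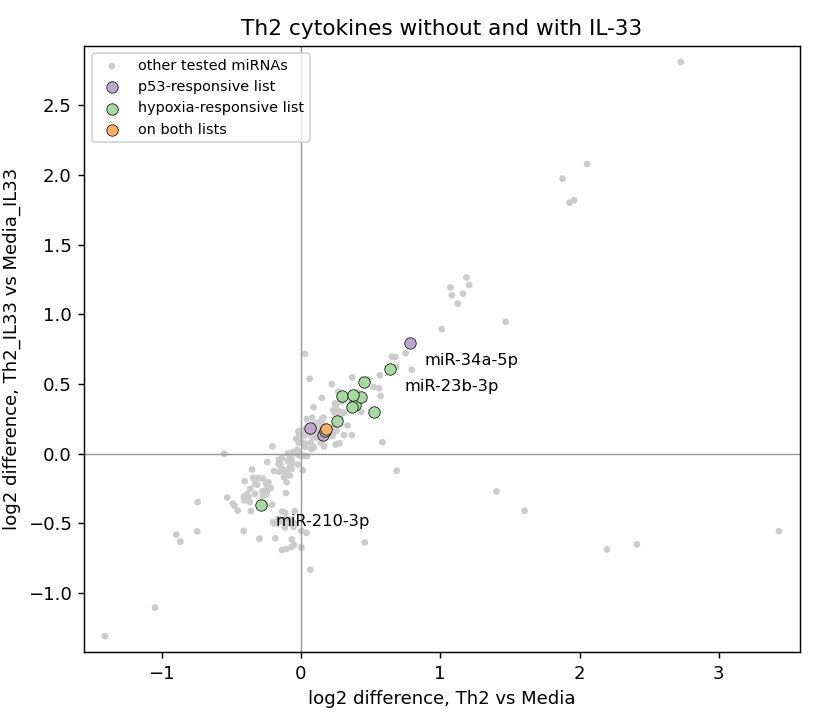
Log2 difference of Th2 over Media (horizontal axis) against that of Th2_IL33 over Media_IL33 (vertical axis) for the 231 tested miRNAs, with members of the p53-responsive and hypoxia-responsive lists coloured. The 2 comparisons share no array, and miR-34a-5p lies at 0.79 and 0.80, while miR-210-3p lies at -0.28 and -0.37.

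Of the other tested miRNAs, the 5 whose log2 signal followed miR-34a-5p most closely over the 16 arrays, by Pearson correlation, were let-7c-5p (0.95), miR-362-3p (0.94), miR-99a-5p (0.94), miR-100-5p (0.93) and miR-29c-3p (0.92). All arrays of a group share a treatment, so these correlations describe the group pattern as well as the spread between arrays. The first 4 were called higher in both comparisons of Th2 cytokines, with log2 differences in Th2 over Media of 0.65 for let-7c-5p, 2.05 for miR-362-3p, 1.08 for miR-99a-5p and 1.01 for miR-100-5p. miR-29c-3p was not called, at 0.40 (limma adjusted p = 0.132). Without Media 2 and Media_IL33 3 the 5 correlations were between 0.93 and 0.99 over 14 arrays.

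The miRNAs nearest to miR-210-3p were miR-20b-5p (0.84), miR-17-5p (0.77), miR-19b-3p (0.76), miR-374c-5p (0.76) and miR-139-5p (0.75). Of these, miR-17-5p, miR-19b-3p and miR-20b-5p are members of the miR-17-92 family of clusters, known for promoting proliferation. None of the 5 was called in a comparison of Th2 cytokines, and each had a log2 difference below 0, between -0.33 and -0.23 in Th2 over Media and between -0.30 and -0.21 in Th2_IL33 over Media_IL33. The 5 nearest to miR-210-3p held no other member of the hypoxia-responsive list, and the 5 nearest to miR-34a-5p no other member of the p53-responsive list. Those lists hold only 12 and 4 of the 231 tested miRNAs, the pair included, so 5 neighbours without a member say little.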

How the data were processed

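Total RNA was labelled with Cy3 and hybridised to 16 single-colour Agilent miRNA arrays, 4 per group. Spot values came from Agilent Feature Extraction 10.7.3.1, per the file headers. The deposited scanner files hold the background-subtracted intensity of every spot, not normalized across arrays. A table of normalized probe intensity values for 3105 probes was deposited as well, made with Partek 6.6 and RMA per the submitters' processing notes, which was used as an alternative. Its columns share 1 median (0.428) on a linear scale with no gene centring, and the exact steps are not given in the sources used here.

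Control spots and outlier-marked spots were dropped, the spots of each probe averaged and the probes of each miRNA summed. Arrays were scaled to their own 75th percentile among 178 miRNAs that all arrays detected, values under 0.0353 were set to that floor, and log2 was taken. limma 3.58.1 in R 4.3.3 fitted 1 mean per group to all 16 arrays for the 231 miRNAs that every array of some group detected. P values were Benjamini-Hochberg adjusted over these miRNAs separately for each comparison (threshold 0.05), and the fit was tested on simulated data. Errors of means are SD and those of log2 differences SE. The within-array difference was tested by exact two-sided permutation and adjusted over 4 comparisons.

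The labels pair arrays by experiment, with 1 experiment letter for each replicate number. Deviations from the group means correlated over 0.1 in 2, 3, 5 and 4 of 6 pairs of arrays for experiments 1 to 4. The main fit and the main permutation test did not use this pairing. An experiment block and a paired sign-flip test were run as alternatives.

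Members and lists were chosen with earlier results of these data known. Named miRNAs were the pair, their opposite arms and the miR-34 and miR-449 relatives of miR-34a, 3p arms of miR-34b and miR-34c included. Called list members with up to 4 others per list, and the 5 miRNAs nearest in pattern to each of the pair, were named as well. The alternatives were the brightest probe per miRNA, the scanner's total signal, normexp background, other scalings, detection filters and floors, outlier spots kept, slide and experiment blocks, single slides and arrays left out. The median of spots, array rows above 130 and leaving out Media 2 with Media_IL33 3 were chosen after seeing the data.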

Additional observations from a re-analysis of the deposited data

How the results depend on the processing

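miR-34a-5p was higher with Th2 cytokines under all 27 alternatives for Th2 over Media and all 26 for Th2_IL33 over Media_IL33, and was called in 24 and 23. It lost its call with the percentile over all miRNAs (0.73, adjusted p = 0.149, and 0.76, adjusted p = 0.180), in the authors' table (0.73, adjusted p = 0.0805, and 0.62, adjusted p = 0.194), with quantile normalization for Th2_IL33 over Media_IL33 (0.69, adjusted p = 0.0791) and within slide 2 for Th2 over Media (0.24, adjusted p = 0.529, 1 array a group). The cause was not tested. Leaving out 1 array gave 0.66 to 0.97 and 0.76 to 0.83. miR-210-3p was called under none, with leave-one-out ranges of -0.52 to -0.09 and -0.49 to -0.25, and it changed sign in 1 of 27 settings for Th2 over Media and in none of 26 for Th2_IL33 over Media_IL33. In the IL-33 comparisons and the interaction no alternative gave a call for either miRNA, and signs changed in 5, 2 and 15 settings for miR-34a-5p and 4, 8 and 8 for miR-210-3p. The leave-one-out ranges there were -0.08 to 0.23, 0.03 to 0.08 and -0.17 to 0.14 for miR-34a-5p, and -0.16 to 0.26, -0.19 to 0.12 and -0.28 to 0.16 for miR-210-3p. Over all alternatives, single slides included, the ranges were wider. They were -0.52 to 0.25, -0.10 to 0.16 and -0.17 to 0.57 for miR-34a-5p, and -0.45 to 0.28, -0.19 to 0.58 and -0.28 to 1.04 for miR-210-3p. The within-array difference ranged from 0.87 to 1.18, -0.17 to 0.074, -0.05 to 0.25 and 1.06 to 1.26 with 1 array left out, for Th2 over Media, Media_IL33 over Media, Th2_IL33 over Th2 and Th2_IL33 over Media_IL33. Without Media 2 it passed at 0.93 and -0.17 in the 2 comparisons with Media (exact permutation, adjusted p = 0.0381 each), but not without Media_IL33 3 as well (adjusted p = 0.0571 and 0.133). Those passes came as both comparisons reached the smallest possible exact p, which made the adjustment milder, not from a larger change with Th2 cytokines. With experiments as a replicate block miR-34a-5p was called at 0.79 (limma adjusted p = 0.00766) and 0.80 (limma adjusted p = 0.00746), the exact sign-flip adjusted p of the within-array difference was 0.25 for both Th2 comparisons, and no call of either miRNA changed. The number of called miRNAs in Th2 over Media was 22 (20 higher and 2 lower), between 19 and 30 with 1 array left out, and 4 within slide 2. The split was 18 and 11 after quantile normalization, 15 and 9 in the authors' table, 21 and 9 with the brightest probe, 12 and 3 with the percentile over all miRNAs, and 17 and 13 without Media 3. In Media_IL33 over Media it was 4, between 3 and 5 with 1 array left out, 1 with normexp or with miRNAs detected on all 16 arrays, 2 within slide 1 and without Media 1, Media 3 and Th2_IL33 2, and 0 within slide 2. In Th2_IL33 over Th2 it was 4, between 3 and 4 with 1 array left out, 2 with normexp, the percentile over all miRNAs, the authors' table or detection on all 16 arrays, and 0 within slide 2. In Th2_IL33 over Media_IL33 it was 22, between 19 and 26 with 1 array left out, 12 with the percentile over all miRNAs, 14 in the authors' table or with detection on all 16 arrays, and 37 with slide and replicate block. Reading each miRNA by the scanner's total signal moved the median of all tested miRNAs to 0.16 in Media_IL33 over Media and -0.14 in the interaction. Scaling by the percentile over all miRNAs moved it to 0.10 in both IL-33 comparisons.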

Other observations

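The dim spots were not particular to the miR-34a-5p probes. Over probes with a mean intensity above 150 and spots both inside and outside array rows up to 130 and columns up to 90, the median ratio of inside to outside was 0.86 on Media_IL33 3 and 0.75 on Media 2, and between 0.96 and 1.07 on the other 14 arrays. The ratio was under 0.8 for 25 of 83 such probes on Media_IL33 3 and 32 of 59 on Media 2. Media 2 also had the most spots marked as outliers (3929 of 49880) and the fewest detected miRNAs (206). The cause was not tested.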
